A study of Mus musculus with 35 samples.

Results

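Type I and type II interferons leave their mark on a cell through a shared set of induced genes. Here 40 genes of this kind and 4 receptor chains were followed in Tregs. These are regulatory T cells of the CD4+ lineage whose task is to hold immune responses in check. The members were chosen by symbol: 4 receptor chains, 4 transcription factors, 4 IFIT genes, 4 OAS genes, 8 guanylate-binding proteins (GBPs), 5 immunity-related GTPases (IRGs), 4 nucleic acid sensors counting the kinase PKR, 6 other antiviral effectors, ISG15 with its protease, and XAF1 with 2 PARPs. They made up 44 of the 55011 gene symbols counted, and all 44 were among the 15910 that passed the filter on low counts. The cells were CD4+ CD25+ Tregs, double sorted from spleen or from visceral adipose tissue (VAT), at 1000 cells for each library. All donors were wild-type C57BL/6 males, retired breeders past 35 weeks of age, housed in 12 h of light and 12 h of darkness. Each tissue was sampled at zeitgeber time (ZT, counted in hours from lights on) 0, 4, 8, 12, 16 and 20, with 3 libraries at each time, except that VAT at ZT20 had 2. That gave 17 VAT and 18 spleen libraries in 12 groups, which are named by tissue, time and the letter in the labels.

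Type I interferons act through the receptor chains IFNAR1 and IFNAR2, and interferon gamma acts through IFNGR1 and IFNGR2. The receptors engage JAK kinases, which phosphorylate STAT proteins. A complex that contains STAT2 and IRF9 then binds the interferon-stimulated response element (ISRE), while STAT dimers bind gamma-activated sites (GAS). Among the induced proteins, IFITs bind foreign RNA, OAS enzymes sense double-stranded RNA, and GBPs and IRGs are large GTPases that attack the membranes around intracellular pathogens.

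The promoters of these genes are shown because these response elements lie in them. RefSeq sequence (build GRCm38.p6) was found for 32 of the 44 members, in 39 windows of 250 bases before an annotated start. The ISRE core GAAANNGAA, searched on both strands, was in 19 of these 39 windows (48.7%) and in 2342 of all 32851 windows (7.13%). The GAS core TTCNNNGAA, which can overlap the first motif, was in 11 of the 39 (28.2%) and in 7.02% of all. ISRE cores stood in 5 of 6 GBP windows, 3 of 4 IRG windows, 4 of 6 IFIT windows, 2 of 3 OAS windows and 0 of 4 receptor windows. They stood in 1 of 6 windows of transcription factors, 1 of 3 of sensors with PKR and 2 of 5 of other effectors. The 1 window of Isg15 held cores and the 1 window of Xaf1 held none. Below are 5 windows, one for each of the first families that had a match, each from the member with the largest tissue difference among those with a match. They run 5′ to 3′ on the gene's strand and end at the last base before the start, and capitals mark the ISRE cores. A run that begins with TTC is the core on the other strand, and runs that overlap are merged.
Stat2: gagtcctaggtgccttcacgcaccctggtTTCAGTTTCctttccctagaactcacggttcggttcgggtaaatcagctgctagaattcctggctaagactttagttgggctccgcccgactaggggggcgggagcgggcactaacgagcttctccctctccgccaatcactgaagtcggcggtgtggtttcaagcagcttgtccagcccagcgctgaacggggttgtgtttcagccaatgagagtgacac
Ifit1bl1: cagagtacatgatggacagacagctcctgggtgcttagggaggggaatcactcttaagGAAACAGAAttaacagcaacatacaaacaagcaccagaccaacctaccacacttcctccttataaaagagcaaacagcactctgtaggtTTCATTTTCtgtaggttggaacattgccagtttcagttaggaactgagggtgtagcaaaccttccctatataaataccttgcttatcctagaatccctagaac
Oas3: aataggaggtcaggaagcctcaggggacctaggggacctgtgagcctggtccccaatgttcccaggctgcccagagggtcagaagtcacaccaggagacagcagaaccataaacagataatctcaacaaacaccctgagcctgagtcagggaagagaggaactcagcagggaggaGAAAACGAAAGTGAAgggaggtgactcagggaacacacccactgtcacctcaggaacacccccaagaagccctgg
Gbp2b: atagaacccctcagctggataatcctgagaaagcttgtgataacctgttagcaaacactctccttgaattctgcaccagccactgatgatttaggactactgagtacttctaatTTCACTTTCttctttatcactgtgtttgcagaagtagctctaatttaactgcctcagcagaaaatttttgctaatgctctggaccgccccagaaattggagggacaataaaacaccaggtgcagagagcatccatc
Irgm2: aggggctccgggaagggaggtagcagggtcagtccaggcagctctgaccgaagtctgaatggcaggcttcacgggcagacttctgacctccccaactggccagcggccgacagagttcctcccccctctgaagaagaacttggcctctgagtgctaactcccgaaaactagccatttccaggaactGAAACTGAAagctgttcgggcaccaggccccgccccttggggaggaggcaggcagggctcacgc
The window of Stat2 lies at chr10:128270248-128270497, plus strand, and its core begins 221 bases before the start. That of Ifit1bl1 is chr19:34601969-34602218, minus strand, with cores beginning 192 and 103 bases before the start. In Oas3 (chr5:120777660-120777909, minus strand), cores beginning at 75 and 69 bases overlap in a single run. Gbp2b (chr3:142594597-142594846, plus strand) has its core at 136 bases and Irgm2 (chr11:58214727-58214976, plus strand) at 64 bases. All 5 genes were lower in VAT than in spleen, but so was every member of their families, so the choice of genes fixed this outcome. The core was also found upstream of Bst2 and Isg15, for which no tissue difference was called. No window of Irf7, Irf9, Ifi47, Ifit2 or Oasl2 held it, and these genes were lower in VAT. A link between the core and the tissue difference was not tested.

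VAT was set against spleen as the mean of its 6 times. Levels are CPM (counts relative to library size) after scaling of the libraries by trimmed means (TMM), and differences are log2 fold changes, VAT minus spleen, with their SE. Adjusted p-values are from edgeR's quasi-likelihood test with Benjamini-Hochberg adjustment over all 15910 genes, called at 0.05. Most members were lower in VAT Tregs: 38 of 44 were called lower and 4 higher, where 33.8% of all genes tested were lower, 28.4% higher and 62.2% either. Ifngr1, Mx1, Isg20 and Eif2ak2 were the 4 that were higher, and Bst2 and Isg15 were not called. The median difference of the 44 was -1.23, against -0.10 over all genes tested. Of the 40 members without the receptors, 35 were lower and 3 higher, with a median of -1.42. Of the members, 25 were lower by at least 2-fold (16.4% of all genes), 9 by over 8-fold (3.51%), and 2 were higher by at least 2-fold (13.4%). In 18 members every VAT library lay below every spleen library (4.02% of all genes), and 37 had a lower VAT mean at all 6 times (26.7%).

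Every member of the IFIT, OAS, GBP and IRG families was lower in VAT, but the families differed in size of change. The median difference was -3.71 for the 4 IFIT genes, -3.08 for the 4 OAS genes, -1.65 for the 8 GBPs and -1.74 for the 5 IRGs. It was -0.37 for the receptors, -1.02 for the transcription factors, -1.25 for the sensors with PKR, -0.32 for the other effectors, -2.15 for ISG15 with its protease and -0.80 for XAF1 with the PARPs. These medians are descriptions of families of 2 to 8 genes, and the difference between families was not tested. The IFIT and OAS fold changes, which rest on low counts in VAT, had SE from 0.17 to 0.53, against 0.05 to 0.34 for the GTPases.

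**Figure D1:**
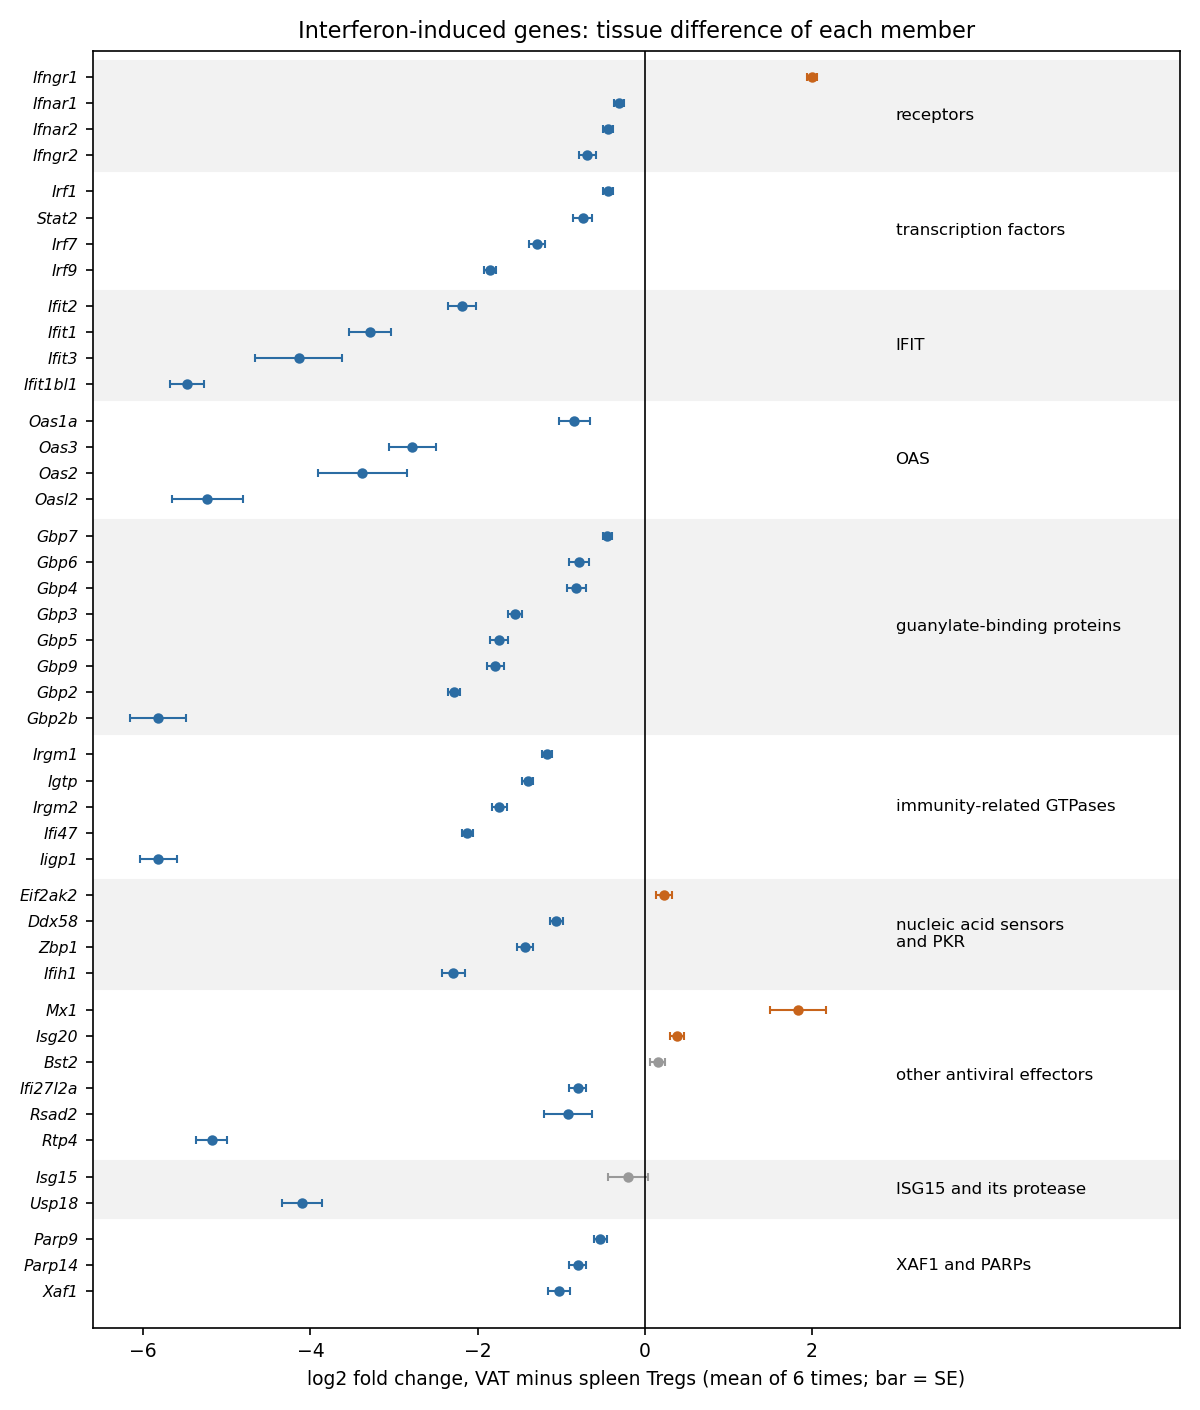
Log2 fold change, VAT minus spleen, of each of the 44 members (x axis), with bars for the SE and members grouped by family. Orange points were called higher in VAT, blue lower, and grey not called; the IFIT, OAS, GBP and IRG families lie wholly to the left of 0, while Ifngr1 stands at 2.00 among receptors that are otherwise below 0.

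The result has limits of the sampling. Fewer cells of a type and less RNA per cell cannot be told apart in such bulk libraries. Nothing in the labels states that replicate letters stand for separate mice, so the p-values measure the spread between libraries, which may be technical. Handling before the sort cannot be told apart from tissue: 11 immediate early genes, induced within minutes by stress or dissociation, summed to between 31551 and 46604 CPM in VAT libraries and between 524 and 1002 in spleen libraries. B cell markers, 8 of 10 of them lower in VAT, summed to between 99.5 and 307 CPM in VAT and between 1218 and 3106 in spleen, most of it Ighm (means of 159 and 1804). All 8 macrophage or monocyte markers were also lower in VAT (1.09 to 14.7 against 21.9 to 99.3 CPM summed), and neither list had a marker at 0 in every library of a tissue. B cells and macrophages express many interferon-induced genes, and the part of their RNA in these differences was not tested. Marker lists of other cell types went both ways. Summed medians in VAT and spleen were 219 and 48.4 CPM for plasmacytoid dendritic cells, led by Ccr9, but 3 of 5 markers were lower in VAT. For natural killer or innate lymphoid cells the sums were 19.2 and 3.12, with 3 of 6 markers lower in VAT. Most of that VAT sum was Il5 (means of 21.8 and 0.116 CPM). For stromal or mesothelial cells they were 109 and 29.9, mostly Gsn (means of 102 and 28.1), with 3 of 9 markers lower in VAT. For conventional CD4 T cells the summed medians were 68.4 and 32.1, and for endothelial cells, led by Pecam1, 34.1 and 258. Treg markers, led by Ctla4 in VAT and Ikzf2 in spleen, summed to between 5708 and 7611 CPM in VAT and between 2849 and 3761 in spleen, with 6 of 7 higher in VAT.

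Among the receptors, the type II ligand-binding chain went the other way from its partner. Ifngr1 (chr10:19591949-19610229) ranged from 1893 to 3833 CPM in VAT libraries, with a median of 2855, and from 561 to 887 in spleen, with a median of 695. Every VAT library lay above every spleen library, which held for 6.4% of all genes tested. The difference was 2.00 ± 0.06 (adjusted p = 2.91e-26, edgeR quasi-likelihood test, Benjamini-Hochberg adjusted), and it lay between 1.90 and 2.15 at the 6 single times. Ifngr2, the signalling partner chain (chr16:91547072-91565623), ranged from 25.8 through a median of 48.4 to 69.6 CPM in VAT and from 43.9 through 74.8 to 104 in spleen. Its ranges overlapped, and its difference was -0.69 ± 0.10 (adjusted p = 2.16e-07 by the same edgeR test).

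Both type I chains were modestly lower in VAT. Ifnar1 ran from 179 through a median of 256 to 376 CPM in VAT and from 222 through 324 to 397 in spleen, so the tissues overlapped over most of their range (-0.31 ± 0.06; adjusted p = 4.55e-05 by the edgeR test). Ifnar2 ran from 80.7 through 108 to 131 CPM in VAT and from 121 through 147 to 181 in spleen (-0.44 ± 0.06; adjusted p = 3.62e-08 by the same edgeR test), and 4 of 17 VAT libraries reached the spleen range. Per kb of exon, the order of levels was Ifngr1, Ifnar1, Ifnar2 and Ifngr2 in both tissues: 999, 44.3, 32.8 and 12.4 CPM per kb in VAT and 253, 53.6, 44.9 and 20.4 in spleen. The library ranges of Ifnar1 and Ifnar2 overlapped on this scale in both tissues. The ratio of Ifngr1 to Ifngr2 per kb had a median of 80.2 in VAT libraries (range 60.8 to 120) and 12.2 in spleen libraries (9.12 to 20.4), without overlap. The ratio of Ifnar1 to Ifnar2 had medians of 1.33 and 1.32, with overlapping ranges.

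The 4 transcription factors were all lower in VAT. Irf9, the DNA-binding subunit of the ISRE complex (chr14:55603571-55610030), ran from 50.3 through a median of 74.9 to 95.7 CPM in VAT and from 203 through 268 to 359 in spleen. The tissues did not overlap, and the difference was -1.85 ± 0.07 (adjusted p = 1.17e-23, edgeR quasi-likelihood test, Benjamini-Hochberg adjusted). Irf7, an amplifier of type I interferon production, ran from 18 through 23.3 to 37.5 CPM in VAT and from 42.3 through 61.5 to 82.7 in spleen, again without overlap (-1.29 ± 0.10). Stat2, which encodes a STAT protein of the same complex, ran from 22.8 through 49.3 to 86.6 against 58.8 through 89.3 to 110 CPM, and 5 of 17 VAT libraries lay within the spleen range (-0.74 ± 0.11). Irf1, a factor induced by interferon gamma, ran from 349 through 476 to 614 against 516 through 627 to 827 CPM, with 3 of 17 VAT libraries in the spleen range (-0.44 ± 0.06). Adjusted p-values of the last 3 genes were 3.37e-14, 5.85e-07 and 1.31e-08 by the edgeR test.

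The IFIT genes were low in VAT. Ifit1bl1 (chr19:34592891-34601956), an IFIT1-like gene of rodents, ran from 0.434 through a median of 4.20 to 10.8 CPM in VAT libraries and from 135 through 201 to 245 in spleen. No VAT library came near the spleen range. The mean level was 40.0 times higher in spleen, and the fitted difference was -5.48 ± 0.20 (adjusted p = 3.37e-19, edgeR quasi-likelihood test, Benjamini-Hochberg adjusted). Ifit2, the member with the smallest change, ran from 3.25 through 10.5 to 18.7 CPM in VAT and from 21.3 through 47.4 to 75.1 in spleen, also without overlap (-2.19 ± 0.17; adjusted p = 8.71e-14 by the same edgeR test). Ifit1 and Ifit3 differed by -3.29 ± 0.25 and -4.14 ± 0.52, and Ifit3 had 0 counts in 7 of 17 VAT libraries. Their VAT and spleen libraries overlapped, with 1 VAT library of Ifit1 and 2 of Ifit3 at or above the lowest spleen library. Ifit3 shares 66.1% of its 25-base words with Ifit3b and Ifit1bl1 shares 24.5% with Ifit1bl2, so how reads were split between these copies is uncertain. Ifit3b (-5.64 ± 0.62) and Ifit1bl2 (-3.45 ± 0.53), which are not among the 44, were lower in VAT too.

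The OAS family showed its largest change in Oasl2, an OAS-like gene (chr5:114896936-114912234). Oasl2 ran from 0 through a median of 0.25 to 5.00 CPM in VAT, with 0 counts in 7 of 17 libraries, and from 4.34 through 14.6 to 23.4 in spleen. Only the highest VAT library reached the lowest spleen library, and the mean level was 17.0 times higher in spleen (-5.23 ± 0.43; adjusted p = 1.29e-12, edgeR quasi-likelihood test, Benjamini-Hochberg adjusted). Oas1a, a 2'-5' oligoadenylate synthetase, had the smallest change: 3.51 through 12.5 to 21.9 CPM in VAT and 14.0 through 22.0 to 40.8 in spleen, with 8 of 17 VAT libraries in the spleen range (-0.84 ± 0.18; adjusted p = 0.000156 by the same edgeR test). It shares 72.4% of its words with Oas1g, and the 2 cannot be told apart with certainty. Oas2 (-3.38 ± 0.53) had 0 counts in 9 of 17 VAT libraries and 3.71 CPM on average in spleen, and Oas3 differed by -2.78 ± 0.28. For Oasl2 the fitted difference ran from -2.42 ± 0.72 at ZT0 to -8.24 ± 1.39 at ZT12. Every VAT library at ZT12 had 0 counts of it, so the size of that last value is uncertain.

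All 8 guanylate-binding proteins were lower in VAT, over a wide span of change. Gbp2b (chr3:142594847-142619179), formerly named Gbp1, was near 0 in VAT: it ran from 0 through a median of 0.751 to 12.7 CPM in VAT, with 0 counts in 5 of 17 libraries, and from 33.3 through 58.2 to 94.6 in spleen. The tissues did not overlap. The mean level was 30.4 times higher in spleen, and the fitted difference was -5.82 ± 0.34 (adjusted p = 1.02e-14, edgeR quasi-likelihood test, Benjamini-Hochberg adjusted). Gbp7 (chr3:142530342-142550149), which lies in the same cluster on chromosome 3, had the smallest change: 298 through 361 to 445 CPM in VAT and 378 through 491 to 571 in spleen, with 4 of 17 VAT libraries in the spleen range (-0.45 ± 0.05; adjusted p = 1.32e-09 by the same edgeR test). Of the other members on that chromosome, Gbp2 (-2.28 ± 0.07), Gbp3 (-1.55 ± 0.08) and Gbp5 (-1.74 ± 0.11) did not overlap between tissues. Of the members on chromosome 5, Gbp9 (-1.79 ± 0.10) did not overlap either, while Gbp4 (-0.82 ± 0.12) and Gbp6 (-0.78 ± 0.12) did. Gbp6 shares 75.7% of its words with other genes, Gbp9 23.7% and Gbp4 19.4%, so the split among the genes on chromosome 5 is uncertain.

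All 5 immunity-related GTPases were lower in VAT, and in none of them did the tissues overlap. Iigp1 (chr18:60376027-60392634), an effector GTPase that coats pathogen vacuoles, ran from 0.368 through a median of 5.54 to 15.8 CPM in VAT and from 224 through 354 to 434 in spleen. The lowest spleen library was above every VAT library by more than an order of magnitude. The mean level was 52.0 times higher in spleen, with a fitted difference of -5.82 ± 0.22 (adjusted p = 7.21e-18, edgeR quasi-likelihood test, Benjamini-Hochberg adjusted). Irgm1, a regulatory GTPase that restrains the effector GTPases on host membranes (chr11:48861968-48871683), had the smallest change: 93.1 through 130 to 204 CPM in VAT against 217 through 312 to 410 in spleen (-1.17 ± 0.06; adjusted p = 7.27e-19 by the same edgeR test). The other regulatory members, Irgm2 (-1.74 ± 0.09) and Igtp (-1.40 ± 0.06), and the effector Ifi47 (-2.12 ± 0.06), lay between. In VAT, the regulators Irgm1, Igtp and Irgm2 were at 131 ± 24.9, 189 ± 31.0 and 29.4 ± 6.66 CPM (SD, n = 17), and the effectors Ifi47 and Iigp1 at 166 ± 31.5 and 6.71 ± 4.20. Per kb of exon the regulators stood at 22.6, 93.7 and 7.97 CPM and the effectors at 66.9 and 1.15. Levels in VAT thus did not separate by role, although both effectors had larger tissue differences than any of the regulators. Whether role and tissue difference go together was not tested in these 5 genes. Exons of Igtp and Irgm2 overlap on the same strand. The 2 genes share 17.6% of the words of Igtp and 10.1% of those of Irgm2, so the split of their reads is uncertain. Exons of Ifi47 overlap those of Olfr56 on the same strand, with 3.57% of the words of Ifi47 shared.

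**Figure D2:**
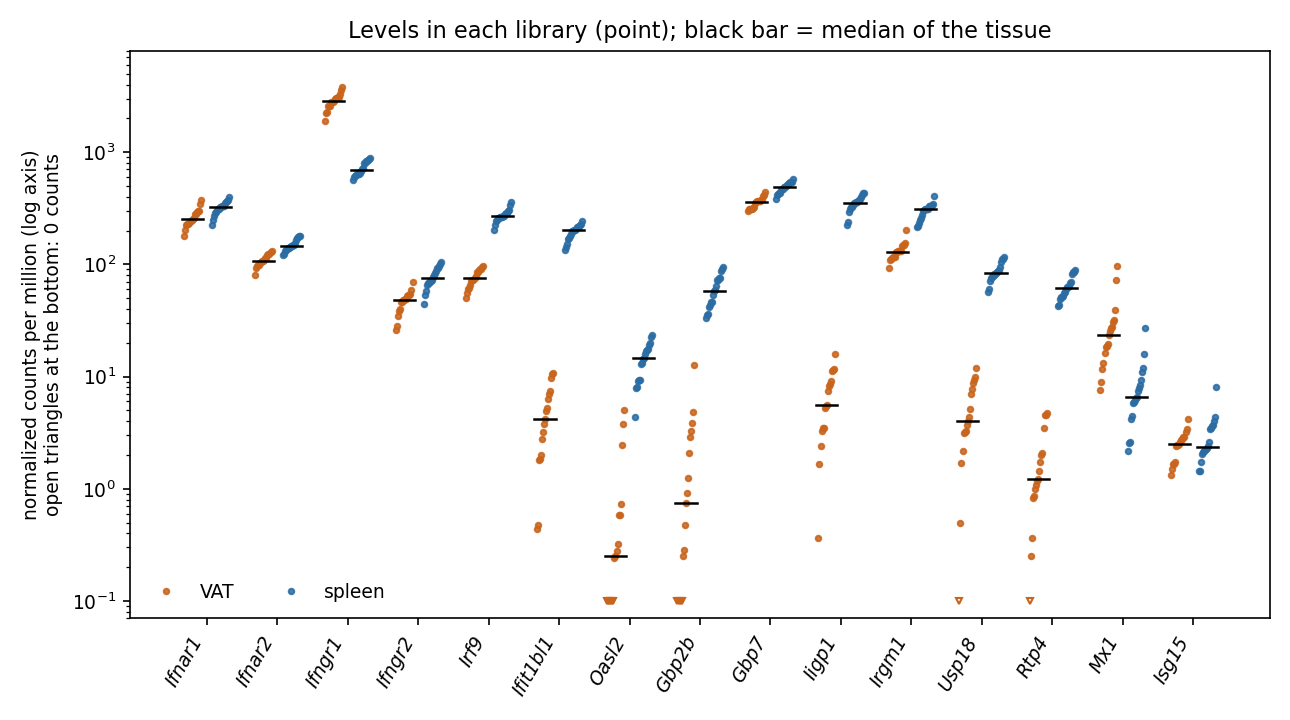
Level of 15 members in each library, in normalized CPM on a log axis, with VAT in orange and spleen in blue; black bars are medians and open triangles mark libraries with 0 counts. Ifngr1 is higher in every VAT library, Ifit1bl1, Gbp2b, Iigp1, Usp18 and Rtp4 are lower in every VAT library, and Isg15 overlaps between the tissues.

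Of the sensors of foreign nucleic acid, Ifih1, which encodes MDA5, changed most: it ran from 5.85 through a median of 11 to 25.8 CPM in VAT and from 36.3 through 58.5 to 85.4 in spleen, without overlap (-2.29 ± 0.14; adjusted p = 2.51e-17, edgeR quasi-likelihood test, Benjamini-Hochberg adjusted). Ddx58, which encodes RIG-I, and Zbp1, a sensor of Z-form nucleic acid, differed by -1.06 ± 0.08 and -1.44 ± 0.10. Eif2ak2, the RNA-activated kinase PKR, ran from 33.7 through 57.9 to 81.4 CPM in VAT and from 32.9 through 47.1 to 64.5 in spleen. Its ranges overlapped almost completely, and its small difference of 0.23 ± 0.10 was barely called (adjusted p = 0.0426 by the same edgeR test). Scaled by library totals, without TMM factors, it turned to -0.12, and the call was lost with size factors of DESeq2 (adjusted p = 0.0550 in edgeR) and in 16 of 35 fits that left out 1 library.

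The remaining effectors held both the members closest to no difference and some of the largest differences. Rtp4, a receptor chaperone that also restricts viruses, ran from 0 through a median of 1.23 to 4.71 CPM in VAT and from 42.7 through 61.3 to 89.0 in spleen (-5.18 ± 0.19; adjusted p = 3.35e-24, edgeR quasi-likelihood test, Benjamini-Hochberg adjusted). Its mean was 34.2 times higher in spleen and the tissues did not overlap. Mx1, an antiviral dynamin-like GTPase that is known to be defective in C57BL/6 mice, was the one effector that was more than 2-fold higher in VAT (1.83 ± 0.34; adjusted p = 3.71e-05 by the same edgeR test). It ran from 7.56 through 23.4 to 95.8 CPM in VAT and from 2.15 through 6.51 to 26.9 in spleen, with wide scatter and overlapping ranges.

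The exonuclease gene Isg20 was slightly higher in VAT (0.39 ± 0.08, adjusted p = 0.000112 by the edgeR test), a difference that shrank to 0.04 with library totals (adjusted p = 0.650). Ifi27l2a and Rsad2, which encodes viperin, differed by -0.80 ± 0.10 and -0.91 ± 0.28, and both were called lower. Rsad2 was the one such member that was not lower at all times: its difference ran from -2.69 at ZT0 to 0.53 at ZT4, it was 0.34 at ZT20, and 14 of 17 VAT libraries lay at or above the lowest spleen library. Bst2, which encodes tetherin, was level between the tissues at 46.6 ± 13.0 (SD, n = 17) and 42.6 ± 12.0 CPM (SD, n = 18), with a difference of 0.16 ± 0.09 (adjusted p = 0.12 by the edgeR test) that was -0.19 with library totals.

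ISG15 is a ubiquitin-like protein that USP18 removes from its targets, and USP18 also blocks signalling at IFNAR2. Usp18 (chr6:121245906-121270917) ran from 0 through a median of 4.0 to 12.0 CPM in VAT and from 56.9 through 83.2 to 115 in spleen. The tissues were wholly separate (-4.10 ± 0.24; adjusted p = 1.17e-14, edgeR quasi-likelihood test, Benjamini-Hochberg adjusted). Isg15 was low in both tissues: 1.33 through 2.50 to 4.20 CPM in VAT and 1.43 through 2.35 to 8.01 in spleen (-0.20 ± 0.24; adjusted p = 0.495 by the same edgeR test). It had only 153 counts over all VAT libraries and 200 over all spleen libraries, and with library totals it was called lower in VAT (-0.54, adjusted p = 0.0444). Xaf1, an antagonist of the apoptosis inhibitor XIAP, ran from 7.26 through 20.2 to 30.7 CPM in VAT and from 29.1 through 41.6 to 66.0 in spleen (-1.02 ± 0.13). Parp9 ran from 54.6 through 113 to 149 against 102 through 143 to 207 CPM, with 11 of 17 VAT libraries in the spleen range (-0.53 ± 0.08), and Parp14, a related ADP-ribosyltransferase, differed by -0.80 ± 0.10. Adjusted p-values of Xaf1 and Parp9 were 9.20e-09 and 2.26e-07 by the edgeR test. Parp9 overlaps Dtx3l on the opposite strand, and with the strand setting unknown, reads from the overlap cannot be assigned to one of them, though only 8.71% of the 25-base words of Parp9 are shared with Dtx3l.

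The members ranked differently in the tissues. Per kb of exon, the highest means in spleen were Ifi47 at 295, Ifngr1 at 253, Igtp at 249, Ifi27l2a at 230, Irf1 at 163 and Gbp2 at 150 CPM per kb. In VAT they were Ifngr1 at 999, Ifi27l2a at 130, Irf1 at 119, Igtp at 93.7, Ifi47 at 66.9 and Gbp7 at 63.2. Irf1, Igtp and Ifi47 kept places near the top in both tissues although each was lower in VAT.

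Other genes of the pathway were listed for comparison: 139 symbols, of which 102 passed the filter. Of those 102, 70 were lower in VAT and 17 higher, with a median of -0.71. Over all genes tested, 33.8% were lower and 28.4% higher, with a median of -0.10. The same shares apply to each list that follows, and no list was tested against them. Among the receptor-bound kinases, Jak1 differed by -0.21 ± 0.09 (adjusted p = 0.0371, edgeR quasi-likelihood test, Benjamini-Hochberg adjusted), Jak2 by 0.79 ± 0.11 and Tyk2 by 0.19 ± 0.09, of which Tyk2 was not called (adjusted p = 0.0733 by the same edgeR test). Of 6 further interferon regulatory factors, 2 were lower, Irf2 (-0.68) and Irf3 (-0.45), and 3 higher, led by Irf4 (2.10 ± 0.14) and Irf5 (1.66 ± 0.08).

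All 12 other interferon-induced GTPases that were tested were lower in VAT, with a median of -2.82 and the largest differences in Gm4951 (-7.51 ± 0.39) and Tgtp1 (-5.98 ± 0.21). Tgtp1 had 37 counts in all VAT libraries together and 34.9 ± 8.59 CPM in spleen (SD, n = 18). Of 9 tested IFI200 genes, which encode DNA-binding sensors and regulators, 8 were lower, led by Ifi207 (-3.31 ± 0.65) and Ifi208 (-2.95 ± 0.17), and 1 higher, the inflammasome sensor Aim2 (0.58 ± 0.08). Of 5 other IFIT and OAS genes tested, 4 were lower, led by Ifit3b and Oasl1 (-4.66 ± 0.43).

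Of the 7 negative regulators, 4 were lower, led by Ptpn6 (-1.55 ± 0.07) and Socs3 (-1.31 ± 0.09), and 2 higher, Socs1 (0.38 ± 0.10) and Ptpn2 (0.26 ± 0.06). Of 56 further induced genes tested, 38 were lower, with Ms4a4c (-5.02 ± 0.21) and Ms4a4b (-4.45 ± 0.15) first, and 9 higher, with the chemokine gene Cxcl10 (3.33 ± 0.24) and the surface antigen gene Ly6a (2.11 ± 0.11) first. Cxcl10 was at 53.9 ± 26.6 CPM in VAT (SD, n = 17) and 6.42 ± 5.28 in spleen (SD, n = 18). Il10rb, a chain of the lambda interferon receptor, was higher in VAT (0.42 ± 0.06), while its partner Ifnlr1 did not pass the filter. Interferon genes themselves were close to absent: 1 of the 21 ligand genes listed, Ifng, passed the filter, at 1.73 ± 1.87 CPM in VAT (SD, n = 17) and 0.98 ± 0.80 in spleen (SD, n = 18), and it was not called (adjusted p = 0.326 by the edgeR test). None of the 3 IFITM genes listed passed it.

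Across the libraries of a tissue, the IFIT and OAS levels ranged more widely, relative to their size, than the GTPases. In spleen, the summed IFIT level ran from 231 to 421 CPM and the summed OAS level from 36.7 to 102 CPM. In both cases the lowest library was ZT12 D and the highest ZT0 C. Summed GBP levels in spleen ran from 1449 to 2228 CPM and IRG levels from 1481 to 2430. In VAT the IFIT sum ran from 10.8 to 44.9, the OAS sum from 4.68 to 27.5, the GBP sum from 691 to 1041 and the IRG sum from 364 to 675 CPM. The IFIT and OAS sums in VAT rest on low counts, and the part of sampling noise in their ranges was not tested. In each of the 4 families the highest VAT sum was below the lowest spleen sum.

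**Figure D3:**
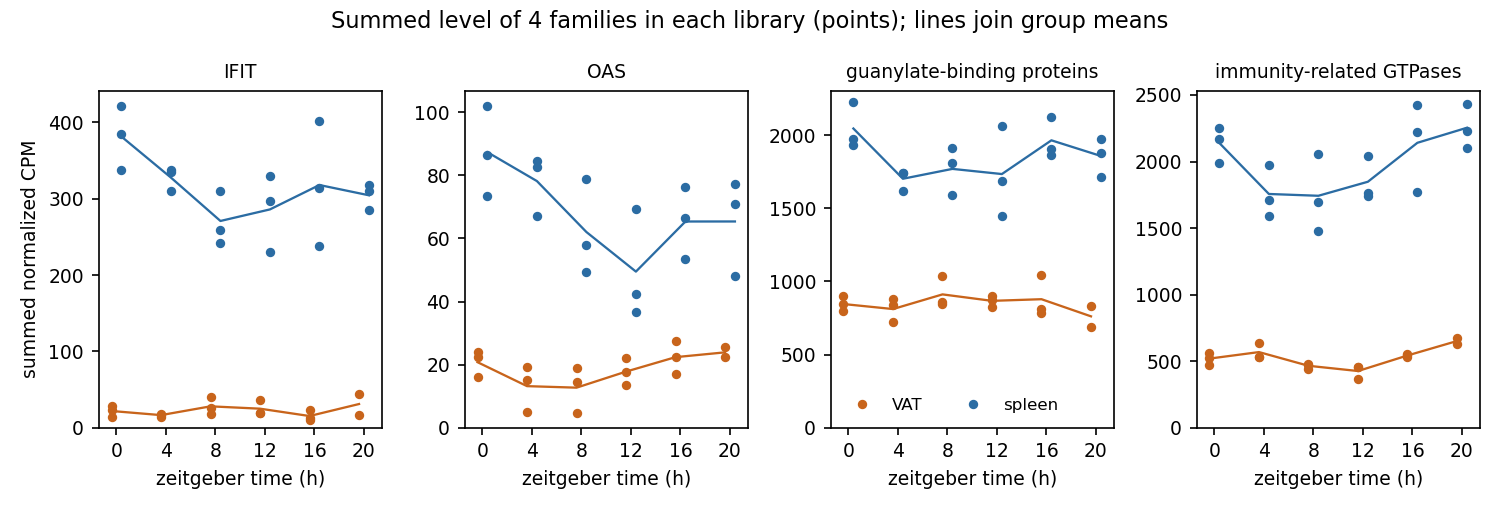
Summed normalized CPM of the IFIT, OAS, GBP and IRG members in each library (points), by zeitgeber time, with lines through group means; VAT is orange and spleen blue. The VAT libraries lie below the spleen libraries in all 4 panels, and the spleen IFIT and OAS sums are highest in the ZT0 library C, at 421 and 102 CPM.

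The course over the day was tested with a 24 h cosine and sine in each tissue. In VAT, 1 of 44 members was called rhythmic, Bst2, where 1.88% of all genes were called. In spleen, 3 were called, Gbp2, Ifi47 and Bst2, against 1.99% of all genes. At an unadjusted p under 0.05 there were 15 members in VAT (17.5% of all genes) and 13 in spleen (15.6%). No member was called for a difference in rhythm between the tissues, by edgeR (0.00629% of all genes) or by DESeq2, and 6 had an unadjusted p under 0.05 (9.09% of all genes). An amplitude is the log2 difference between the fitted peak and trough.

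Bst2 encodes tetherin, which holds budding virions at the cell surface. In VAT it was at 52.7, 44.3 and 39.8 CPM at ZT0, at 57.6, 47.0 and 47.3 at ZT4, at 35.6, 30.9 and 34.2 at ZT8, at 35.2, 27.9 and 38.9 at ZT12, at 46.5, 53.9 and 58.8 at ZT16, and at 75.3 and 67.1 at ZT20. Both ZT20 libraries were above all others, and the ZT8 and ZT12 libraries were below all others. The fitted amplitude was 0.88 ± 0.20 with a peak at ZT21.0 (adjusted p = 0.0300, edgeR quasi-likelihood test, Benjamini-Hochberg adjusted). In spleen it was at 53.3, 54.2 and 48.0 CPM at ZT0, at 44.4, 28.2 and 41.7 at ZT4, at 27.6, 35.2 and 26.6 at ZT8, at 37.7, 31.6 and 32.0 at ZT12, at 31.9, 53.5 and 62.3 at ZT16, and at 41.0, 57.4 and 59.8 at ZT20. Low values at ZT8 and ZT12 recurred, but 1 library at ZT4 and 1 at ZT16 lay among them. The amplitude was again 0.88, ± 0.19, with a peak at ZT20.6 (adjusted p = 0.0202 by the same edgeR test).

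Gbp2 was called rhythmic in spleen and not in VAT, and the difference between the tissues was not called (unadjusted p = 0.00265, adjusted p = 0.302 by the edgeR test). In spleen Gbp2 was at 370, 428 and 406 CPM at ZT0, at 299, 283 and 288 at ZT4, at 346, 344 and 301 at ZT8, at 382, 263 and 349 at ZT12, at 357, 483 and 527 at ZT16, and at 436, 512 and 415 at ZT20. The ZT4 libraries were tight and low, and the ZT16 libraries were spread widely. The amplitude was 0.65 ± 0.13 with a peak at ZT18.7 (adjusted p = 0.0166, edgeR quasi-likelihood test, Benjamini-Hochberg adjusted). In VAT Gbp2 was at 93.7, 90.2 and 96.2 CPM at ZT0 and between 42.8 and 91.1 at the other times, with an amplitude of 0.43 ± 0.14 (adjusted p = 0.173 by the same edgeR test).

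Ifi47 in spleen was at 823, 837 and 699 CPM at ZT0, at 670, 580 and 525 at ZT4, at 685, 637 and 553 at ZT8, at 773, 677 and 667 at ZT12, at 667, 928 and 963 at ZT16, and at 819, 725 and 919 at ZT20. ZT16 B and C were the highest libraries, while ZT16 A was among the low ones. Its amplitude was 0.53 ± 0.13 with a peak at ZT18.4 (adjusted p = 0.0412, edgeR quasi-likelihood test, Benjamini-Hochberg adjusted).

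The next smallest p-values in VAT belonged to Igtp and Ifngr1, neither of which was called. Igtp in VAT was at 216, 200 and 194 CPM at ZT0, at 218, 188 and 195 at ZT4, at 184, 172 and 151 at ZT8, at 170, 118 and 144 at ZT12, at 216, 184 and 221 at ZT16, and at 214 and 234 at ZT20 (amplitude 0.52 ± 0.13; adjusted p = 0.0583 by the edgeR test). Its ZT12 libraries were the lowest as a group. Ifngr1 in VAT was at 2971, 3020 and 2551 CPM at ZT0, at 2776, 2561 and 2598 at ZT4, at 2266, 2209 and 2783 at ZT8, at 3128, 3074 and 1893 at ZT12, at 3037, 2855 and 3261 at ZT16, and at 3549 and 3833 at ZT20 (amplitude 0.48 ± 0.13; adjusted p = 0.0730 by the edgeR test). The ZT20 libraries were the highest, and the lowest single library was ZT12 D.

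**Figure D4:**
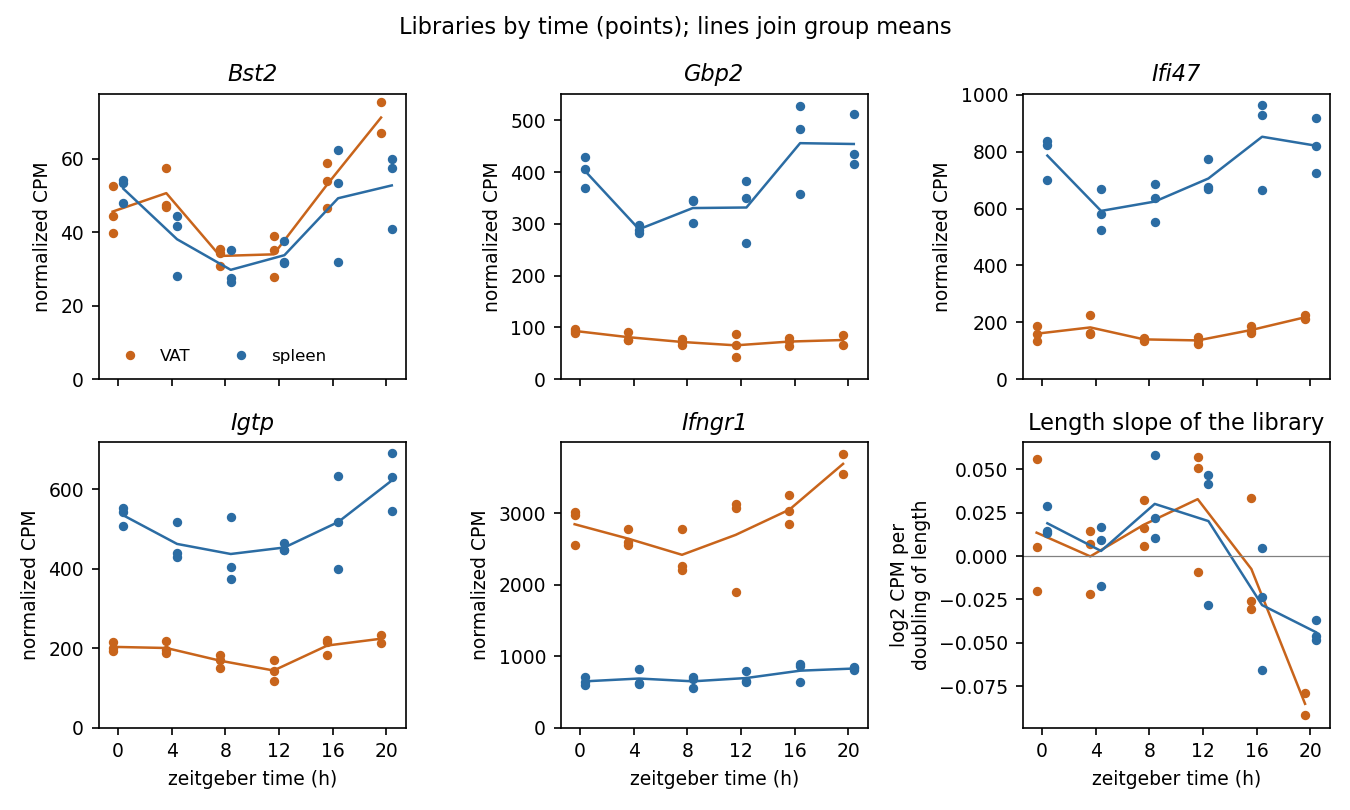
Normalized CPM of Bst2, Gbp2, Ifi47, Igtp and Ifngr1 in each library (points) by zeitgeber time, with lines through group means, and in the last panel each library's slope of log2 CPM on transcript length; VAT is orange and spleen blue. Bst2 is lowest at ZT8 and ZT12 in both tissues, and the length slope is lowest at ZT20 in both.

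A slope of level on transcript length moved with the same hours. It was computed from the levels of the tested genes themselves, and whether its change is technical was not tested. In each library the log2 level of all genes, centred per gene within the tissue, was regressed on log2 exon length; a negative slope means that short transcripts were relatively more abundant. The mean slope was -0.085 in VAT and -0.044 in spleen at ZT20 and -0.028 in spleen at ZT16, and it lay between -0.0075 and 0.033 at all other times. The called members are short or of middling length: 903 bases of exon in Bst2, 2473 in Ifi47 and 2516 in Gbp2. All members were also sorted by fitted peak, whether called rhythmic or not. The 26 members with a fitted spleen peak between ZT16 and ZT24 had a median length of 3056, and the other 18 of 5143. For VAT these medians were 3088 for 18 members and 5143 for 26. Most of these members were not called, and the peak of an uncalled member can be arbitrary. Irgm2 in VAT, for example, had its peak at ZT19.3 with an amplitude of 0.006 ± 0.23. The difference in length between these groups was not tested, and it does not tie called rhythms to length. With the slope as a covariate, 0 members were called in either tissue, and over all genes the calls fell from 299 to 27 in VAT and from 316 to 106 in spleen. The amplitude of Bst2 was then 0.65 in VAT (adjusted p = 0.375 by the edgeR test) and 0.70 in spleen (adjusted p = 0.151), that of Ifi47 in spleen was 0.38 (adjusted p = 0.341), and that of Gbp2 stayed at 0.64 (adjusted p = 0.0575). Summed B cell markers, mostly Ighm, were 294 and 307 CPM in the VAT libraries at ZT20, above all other VAT libraries. In spleen they were 2063 to 3106 at ZT20, a range that the ZT16 libraries B and C (2105 and 2354) reached. Their part in the rhythms was not tested.

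The calls over time depend on the scaling and on single libraries. With library totals neither Bst2 in VAT (adjusted p = 0.0611) nor Ifi47 in spleen (adjusted p = 0.0697) was called by the edgeR test, and with VAT fitted alone Bst2 was not called there (adjusted p = 0.0912). Bst2 in VAT was not called without ZT8 B, C or D, ZT12 B or D, or ZT20 A or C. Bst2 in spleen was not called without spleen ZT8 B, ZT8 D or ZT20 C, and Gbp2 was not called without spleen ZT16 B. Ifi47 was not called in 14 of 35 fits that left out 1 library: spleen ZT4 C or D, ZT8 B, C or D, ZT12 B or D, ZT16 B or C, ZT20 A or C, and VAT ZT0 B and ZT8 C or D. Without all ZT20 libraries, 0 members were called in VAT and 1, Bst2, in spleen.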

How the data were processed

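RNA of 35 libraries of sorted Tregs was sequenced. The authors deposited raw counts of reads per gene symbol. The submitters' processing notes name the build mm10, the aligner STAR 2.7.3a and the counter featureCounts. Not given in the sources used here are the annotation, the strand setting and the rule for reads with several matches. Oligo(dT) priming was followed by PCR before and after tagmentation and by paired reads of 25 bases, per the labels' protocols, which mention no molecular identifiers. Libraries held 2069319 to 6260185 counts (medians 4104617 in VAT and 3181086.5 in spleen), and no 2 libraries of a group agreed within sampling noise (34 pairs, chi-square per gene 4.10 to 20.0).

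In R 4.3.3, edgeR 4.0.16 kept 15910 genes by filterByExpr over the 12 groups, scaled libraries by TMM and fitted robust quasi-likelihood models to all 35 libraries: group means for VAT against spleen (the mean of 6 groups minus the mean of 6), and a cosine and sine of 24 h in each tissue for rhythm and for its difference. Log2 CPM for the length slope used a prior count of 2. DESeq2 1.42.0 was an alternative. The scripts were tested on simulated data. Gene positions and exon lengths are from GENCODE M21 (GRCm38), which held all 44 members, and promoters from RefSeq. Words of 25 bases shared with other genes were counted over its transcripts.

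The members and the lists of other pathway genes and markers were chosen with earlier results of these data known. Full values are given for the receptors, the transcription factors and, in each other family, the members of lowest and highest fold change, and values by time for members called rhythmic or of the 3 smallest p in a tissue with fewer than 3 calls. Of other pathway genes, up to 2 called genes per direction and list with the largest change are named, besides Jak1, Jak2, Tyk2 and Ifng; a further item is not reported here. The close copies Ifit3b and Ifit1bl2 were named after their values were seen.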

Additional observations from a re-analysis of the deposited data

How the results depend on the processing

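The count of members lower in VAT was 38 under each scaling, filter, tool and block tried except library totals, which gave 39, and in each fit that left out 1 library. It was also 38 with the ZT20 libraries left out (chosen after seeing the data), 28 to 34 at single times, and 25 with a 2-fold minimum. The count of higher members was 3 or 4 when 1 library was left out, 2 with library totals, 1 at ZT0, 2 at each of ZT4, ZT8, ZT12, ZT16 and ZT20, 2 with a 2-fold minimum and 3 with the ZT20 libraries left out. Calls over all genes were not kept for single times, so the member counts at those times cannot be set against a share of all genes. Library totals moved the median of all genes from -0.10 to -0.45 and turned 2 members: Eif2ak2 to -0.12 and Bst2 to -0.19, neither called. The higher and lower calls over all genes were then 2856 and 8514, against 4520 and 5376. Eif2ak2 lost its call in 16 of 35 fits without 1 library: VAT ZT0 B, ZT4 B, ZT8 B, ZT12 A or D, ZT16 A or ZT20 A, and spleen ZT0 A or B, ZT4 C, ZT8 C or D, ZT12 A, ZT16 A or B, or ZT20 A.

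Members rhythmic in VAT numbered 0 with library totals, the length slope, VAT fitted alone or no ZT20 libraries, 2 with CPM above 5 in at least 3 libraries, 6 with DESeq2, 9 for any difference among times and 11 with no filter. In spleen they numbered 0 with the length slope, and 1 without ZT20 or for any difference among times. They numbered 5 with DESeq2, 6 with no filter and 7 with spleen fitted alone. Over all genes, VAT calls were 196 with library totals, 27 with the length slope and 17 without ZT20. They were 361 with the CPM filter, which tested another set of genes. Spleen calls were 106 with the length slope and 284 without ZT20. Counts over all genes were not kept for DESeq2, any difference among times or a tissue fitted alone. With no filter 7 members had a called difference in rhythm, and 0 otherwise; over all genes the calls with no filter were 1572 in VAT, 1446 in spleen and 1547 for the difference, against 299, 316 and 1. Without 1 library the counts of members were 0 to 5 in VAT and 1 to 5 in spleen. In VAT they were 5 without VAT ZT0 C (1008 of all genes called) and 4 without VAT ZT4 B (421). In spleen they were 5 without spleen ZT16 A (569 of all genes called). They were 1 without spleen ZT8 D (136), ZT16 B (98) or ZT20 C (152). The cause of these changes was not tested.

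Replicate letters are shared by the tissues but did not pair libraries: 0 of 17 VAT and spleen pairs of 1 letter and time had deviations correlated above 0.1 (-0.11 to 0.06), and 4 of 17 VAT libraries correlated best with their own letter. With the letter as a replicate block, 0 members were rhythmic in VAT (Bst2, adjusted p = 0.0589 in edgeR) and 2 in spleen, Gbp2 and Bst2 (Ifi47, adjusted p = 0.0923), where 124 and 171 of all genes were called, and 0 in either with block and length slope together (chosen after seeing the data). The tissue counts were 38 and 4 with the block. The length slope was not fitted for the tissue contrast, since it is centred within each tissue. Depth limits the members with the fewest counts in all VAT libraries: Oas2 (34), Oasl2 (53), Ifit3 (87), Rtp4 (111), Gbp2b (123) and Isg15 (153).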
